A study of Mus musculus with 18 samples.

Results

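At 742 promoters of the mouse brain, chromatin was more accessible in the central amygdala (CeA) than in cortex when nuclei of somatostatin-positive (SOM+) cells were compared, and less accessible in the CeA when unselected (bulk) nuclei were compared. Accessibility was measured by ATAC-seq, in which the transposase Tn5 cuts open DNA and leaves sequencing adapters in it, as reads counted in promoter windows of 1 kb on each side of the transcription start. The 742 windows are 4.52% of the 16429 windows with a mean of at least 10 CPM (counts scaled to a common library total) over the 18 libraries, out of 26065 windows in all. They were chosen on the measurements themselves. For each window the mean log2(CPM + 1) of the cortex libraries was subtracted from that of the CeA libraries, within SOM+ and within bulk nuclei, and the median over the 16429 windows was subtracted from each difference. A window was kept where the SOM+ difference was at least 0.4 and the bulk difference at most -0.4. The size of both differences therefore follows from the choice, and is described below without a test.

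All mice were C57BL/6J and 2 to 3 months old. SOM+ nuclei were sorted by the GFP that their somatostatin-expressing cells carry in the nucleus, from the CeA and prefrontal cortex of control and fear-conditioned mice whose genotype is labelled WT, with 2 libraries in each of the 4 groups. Bulk nuclei, for which the DNA dye NucBlue was added before sorting, came from the same regions of mice with the Erbb4 knockout (KO) confined to SOM+ cells, with 3 libraries each, or of wild-type (WT) animals, with 2 each. The bulk mice are labelled as controls for conditioning, and the genotype field of the WT libraries also names the KO, so that WT rests on the sample titles. Each library was made from 50000 nuclei. The protocol speaks of technical replicates at the sort, but Y-linked windows had counts in number 1 and none in number 2 of every SOM+ group, and none in KO 2, so these did not share a pool of mice with the others of their group. Whether the other bulk libraries of a group came from separate mice is not stated, and there the p-values may measure technical spread. SOM+ and bulk nuclei differ at once in gate, mouse line and experiment, and these cannot be told apart. Libraries numbered 1 in SOM+ nuclei are labelled male and those numbered 2 female, while the bulk libraries are labelled male except WT 1.

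The CeA is a striatum-like nucleus of inhibitory neurons that drives learned defensive responses, and many of its cells make somatostatin. In cortex the somatostatin cells are a minority of inhibitory interneurons, while most neurons are glutamatergic. A promoter is the stretch around a transcription start that is kept free of nucleosomes where the gene is in use, and many promoters are rich in CpG, the base pair step at which DNA is methylated. In bulk nuclei, fewer cells with an open promoter and a less open promoter in each cell cannot be told apart.

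Cortex SOM+ libraries were the deepest, with summed promoter counts between 9452310 and 14668694. Totals in the other sets were 2648959 up to 7727263 for CeA SOM+, 2751769 up to 7220446 for CeA bulk and 5146020 up to 7939962 for cortex bulk. A count of 0 allows up to 3 counts, which is 0.205 CPM in the deepest and 1.13 CPM in the shallowest library, for counting error only. Markers of the region went with the labels in both kinds of nuclei, and those of somatostatin cells in cortex but not in the CeA. The 29 windows of CeA and striatal-type markers summed to 851 to 958 CPM in CeA SOM+ against 420.4 to 505 in cortex SOM+, and to 1071 to 1244 in CeA bulk against 751 to 821 in cortex bulk. The 8 windows of GABAergic markers summed to 570.2 to 662 CPM in CeA SOM+, 544 to 592 in cortex SOM+, 442 to 607 in CeA bulk and 157 to 208 in cortex bulk libraries. Somatostatin-cell markers (19 windows) summed to 483 to 547 CPM in cortex SOM+ against 379 to 399 in cortex bulk, but to 225 to 288 in CeA SOM+ against 294 to 383 in CeA bulk, so a gain of these markers over bulk was seen in cortex and not in the CeA. Those of 23 glutamatergic marker windows were highest in cortex bulk, at 917 to 1028 CPM, against 569 to 630.1 in CeA bulk, and stood at 547 to 653 in cortex SOM+ and 457 to 495 in CeA SOM+. The labelled sex did not match the Y chromosome in 4 bulk libraries. KO 2 of both regions is labelled male and had 0 counts at the Y-linked windows, while WT 1 is labelled female and had 52.7 CPM in CeA and 109.5 CPM in cortex. Without these 4 libraries the rule kept 727 windows, of which 609 were among the 742.

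Promoters of 5 of the members with the widest gap between the SOM+ and the bulk difference are shown, from RefSeq's promoter table (GRCm38.p6). Those shown range from very dense to poor in CpG. Each runs 5′ to 3′ on the gene's strand from 250 bases before to 50 bases after the start, with CpG in capitals. Cacna2d1 is at chr5:15934441-15934740 (+ strand), Adgrf4 at chr17:42692235-42692534 (- strand), Shroom2 at chrX:152769437-152769736 (- strand), Phf14 at chr6:11907579-11907878 (+ strand) and Slitrk2 at chrX:66649068-66649367 (+ strand).
Cacna2d1: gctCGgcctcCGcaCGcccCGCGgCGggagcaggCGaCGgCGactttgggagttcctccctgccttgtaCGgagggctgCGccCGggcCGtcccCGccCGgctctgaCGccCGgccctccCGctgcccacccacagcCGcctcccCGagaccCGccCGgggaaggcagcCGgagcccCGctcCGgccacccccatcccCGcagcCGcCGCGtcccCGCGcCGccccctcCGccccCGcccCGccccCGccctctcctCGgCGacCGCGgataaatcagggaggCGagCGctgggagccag
Adgrf4: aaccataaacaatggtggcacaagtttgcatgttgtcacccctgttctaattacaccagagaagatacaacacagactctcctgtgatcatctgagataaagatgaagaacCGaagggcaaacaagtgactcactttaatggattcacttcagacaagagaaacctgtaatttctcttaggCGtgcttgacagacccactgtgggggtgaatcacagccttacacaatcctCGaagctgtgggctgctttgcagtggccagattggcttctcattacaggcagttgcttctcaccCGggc
Shroom2: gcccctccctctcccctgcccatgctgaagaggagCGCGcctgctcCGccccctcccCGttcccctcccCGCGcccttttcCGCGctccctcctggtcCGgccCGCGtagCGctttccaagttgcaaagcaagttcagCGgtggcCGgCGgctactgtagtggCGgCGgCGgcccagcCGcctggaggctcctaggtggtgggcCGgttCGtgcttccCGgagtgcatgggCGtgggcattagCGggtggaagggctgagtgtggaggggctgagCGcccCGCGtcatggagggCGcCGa
Phf14: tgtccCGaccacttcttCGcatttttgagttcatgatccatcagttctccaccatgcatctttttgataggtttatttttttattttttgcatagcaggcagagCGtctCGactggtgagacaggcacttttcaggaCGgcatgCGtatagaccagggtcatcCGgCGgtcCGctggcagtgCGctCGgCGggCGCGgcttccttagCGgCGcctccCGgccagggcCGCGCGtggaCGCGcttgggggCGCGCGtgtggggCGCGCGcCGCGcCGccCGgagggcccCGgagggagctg
Slitrk2: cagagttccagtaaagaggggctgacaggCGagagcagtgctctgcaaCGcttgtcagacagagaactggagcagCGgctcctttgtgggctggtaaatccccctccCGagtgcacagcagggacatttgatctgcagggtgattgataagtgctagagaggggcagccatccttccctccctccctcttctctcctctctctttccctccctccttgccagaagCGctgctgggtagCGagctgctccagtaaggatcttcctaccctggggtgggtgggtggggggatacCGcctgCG
They held 42 CpG in Cacna2d1, 33 in Phf14, 29 in Shroom2, 8 in Slitrk2 and 4 in Adgrf4, against a median of 7 over all 32851 entries. Their GC content was 80%, 62.7%, 71.3%, 59.3% and 46.7% in the same order, with a median of 52.7% over all entries. So the entries shown for members with the widest gaps were both CpG-dense and CpG-poor. Shroom2 had 4 entries and Phf14 and Slitrk2 had 2 each, not all of which are shown. Entries were matched by symbol and not joined to the mm9 windows, so a start shown may differ from that of the member window. By symbol, 476 of the 742 members (64.2%) had an entry, which is under the 80% needed for a comparison of base composition over the set, and none was made.

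Among the members the SOM+ difference ran from 0.40 to 2.22, with a median of 0.68 on the log2 scale, and the bulk difference from -1.44 to -0.40, with a median of -0.52. The medians that were subtracted were 0.01 in SOM+ and 0.07 in bulk nuclei. The SOM+ threshold alone was met by 4308 windows (26.2%) and the bulk threshold by 2295 windows (14.0%). The members are 17.2% of the former and 32.3% of the latter. The opposite pattern, low in CeA SOM+ and high in CeA bulk, was met by 768 windows at the same thresholds. Just inside a threshold stood Stard3nl (SOM+ 0.73, bulk -0.40), Pank1 (0.40, -0.45) and Eif2s3y (0.40, -0.51). Just outside, by a bulk difference that rounds to the threshold, stood Acsl4 (SOM+ 0.45), Bod1l (0.66) and 2500002B13Rik (0.93). Eif2s3y lies on the Y chromosome.

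**Figure D1:**
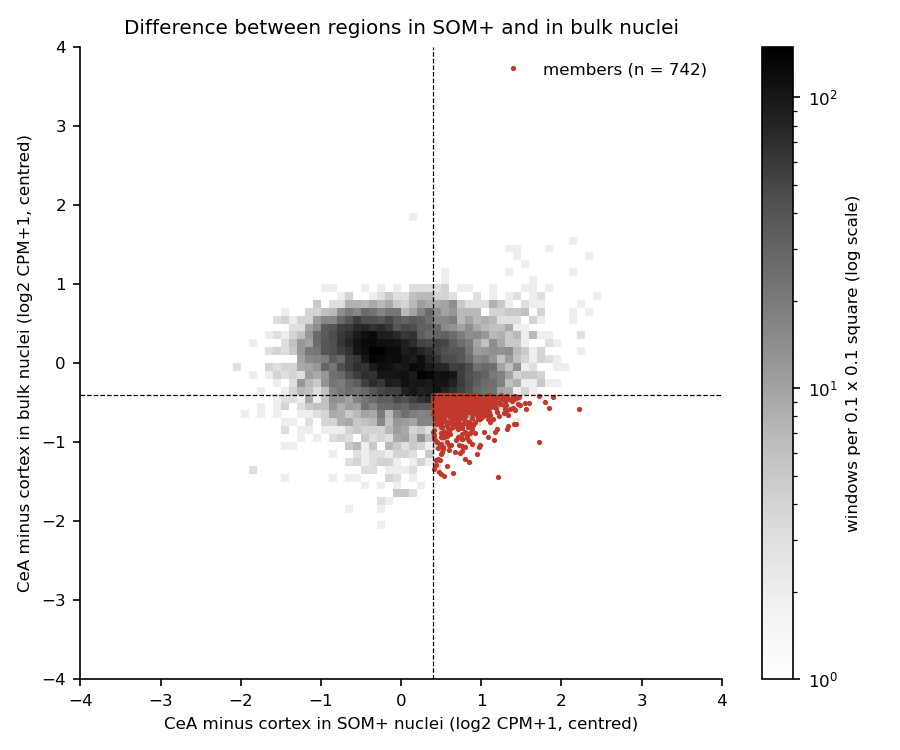
Difference between CeA and cortex in SOM+ nuclei (x axis) against that in bulk nuclei (y axis), both as centred differences of mean log2(CPM + 1). Grey squares count all 16429 windows over the filter on a log scale, red points are the 742 members, and the dashed lines are the thresholds that chose them, at 0.4 and -0.4.

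Single libraries bore out the averages at some members and not at others. Every CeA SOM+ library lay above every cortex SOM+ library at 562 members (75.7%), where this held at 26.6% of all windows over the filter. Every CeA bulk library lay below every cortex bulk library at 292 members (39.4%, against 7.46% of all windows), and both held at 232 members (31.3%, against 1.9%). Since the rule used these libraries, nothing is read from the excess. The SOM+ difference had its sign in 741 members in control libraries alone (median 0.71) and in 741 in fear libraries alone (median 0.67). In bulk nuclei the sign held for 742 members in KO alone (median -0.46) and for 741 in WT alone (median -0.62). The bulk threshold of -0.4 was met by 497 members in KO and by 658 in WT libraries.

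The levels behind the rule are given per library. That the members differ more between SOM+ and bulk nuclei in cortex than in the CeA follows from the choice and is no finding. The median member stood at 39.3 to 42.7 CPM in the 4 CeA SOM+ libraries and at 43.6 to 51.3 in the 5 CeA bulk libraries. These CeA ranges lay close to each other but did not overlap. In cortex the median member stood at 20.6 to 27.5 CPM in SOM+ and at 57.4 to 78.3 in bulk libraries, which did not overlap either. The median over all windows past the filter ranged only from 37.1 to 48.4 CPM over the 18 libraries. The members' mean level over all libraries, median 46.8 and range 10.1 to 271 CPM, was like that of the other windows (median 46.8). Within cortex bulk, KO 3 (78.3 CPM) and WT 2 (74.3) were highest, and KO 1 (57.4) lowest. Without cortex KO 3 the rule kept 492 windows and without cortex KO 1 it kept 1074.

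**Figure D2:**
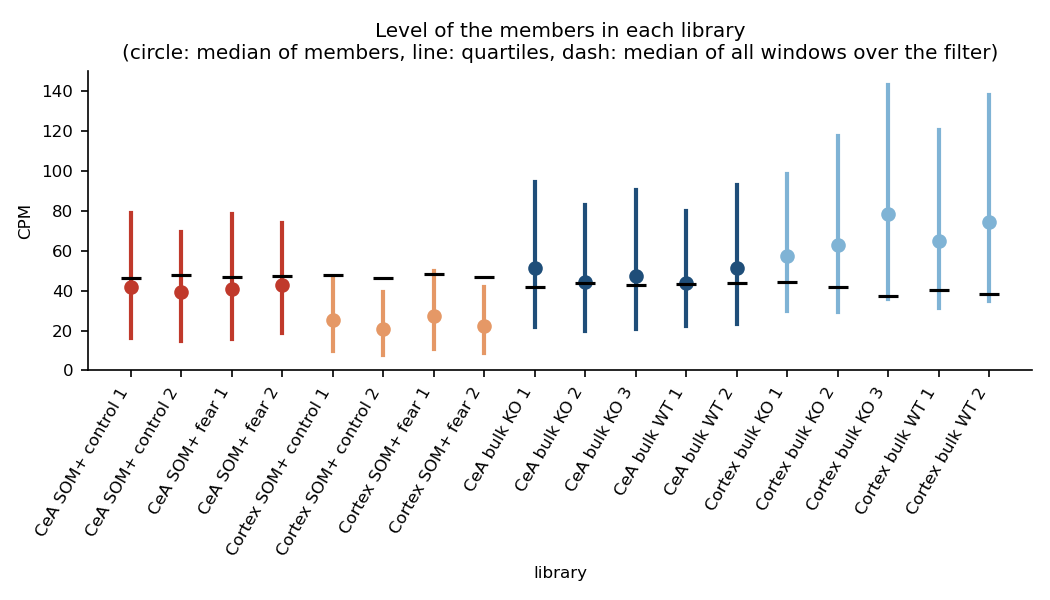
Level of the 742 members in each of the 18 libraries, in CPM. Circles are the median over members, vertical lines the quartiles and dashes the median of all 16429 windows over the filter. The members' medians sit between 20.6 and 27.5 CPM in cortex SOM+ and between 57.4 and 78.3 CPM in cortex bulk libraries.

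The 12 members with the widest gap between the SOM+ and the bulk difference are given in full, by role, with values in the order of the library numbers and window positions in mm9. Cacna2d1 encodes an auxiliary subunit of voltage-gated calcium channels and had the widest gap (chr5:15439509-15441508). Cacna2d1 in SOM+ nuclei measured 90.3 and 63.4 CPM in CeA control, 90.6 and 69.1 in CeA fear, 22.3 and 9.35 in cortex control and 23.8 and 12.1 in cortex fear libraries. Its bulk values were 107, 84.8 and 92.1 CPM in CeA KO, 93.4 and 101 in CeA WT, 110.3, 151 and 148 in cortex KO and 132 and 140.1 in cortex WT libraries. The SOM+ libraries of the CeA all lay above those of cortex, and the bulk libraries of the CeA all lay below, with regional differences of 2.22 in SOM+ and -0.58 in bulk nuclei. Necab1 encodes a neuronal calcium-binding protein (chr4:15075279-15077278). Necab1 in SOM+ nuclei measured 58.1 and 50.4 CPM in CeA control, 66.4 and 61.9 in CeA fear, 18.3 and 10.6 in cortex control and 20.8 and 12.5 in cortex fear libraries. The bulk values of Necab1 were 62.3, 42.4 and 55.2 CPM in CeA KO, 46.9 and 56.7 in CeA WT, 50.3, 69.6 and 79.6 in cortex KO and 64.6 and 74.8 in cortex WT libraries, where cortex KO 1 fell within the CeA range. Sri encodes sorcin, a calcium-binding regulator of calcium release (chr5:8045078-8047077). Sri in SOM+ nuclei measured 17.1 and 11.6 CPM in CeA control, 10.9 and 18.5 in CeA fear, 4.20 and 3.64 in cortex control and 3.82 and 4.23 in cortex fear libraries. The bulk values of Sri were 14.4, 10.7 and 12.1 CPM in CeA KO, 15.4 and 13.1 in CeA WT, 18.2, 17.4 and 20.5 in cortex KO and 15.3 and 18.5 in cortex WT libraries, and the regions overlapped at CeA WT 1 and cortex WT 1. The SOM+ libraries of the 2 regions stood apart at Necab1 and Sri, and their regional differences were 1.89 in SOM+ and -0.43 in bulk nuclei and 1.60 in SOM+ and -0.50 in bulk nuclei.

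Adhesion, matrix and cell shape account for 4 of the 12. Adgrf4 encodes an adhesion G protein-coupled receptor (chr17:42828234-42830233). Adgrf4 in SOM+ nuclei measured 16.7 and 14.7 CPM in CeA control, 22.2 and 27.9 in CeA fear, 4.20 and 5.41 in cortex control and 6.00 and 5.50 in cortex fear libraries. Bulk values of Adgrf4 were 9.43, 12.0 and 8.06 CPM in CeA KO, 9.14 and 13.8 in CeA WT, 18.6, 20.2 and 17.0 in cortex KO and 24.7 and 22.9 in cortex WT libraries. Its regions were apart in both kinds of nuclei, and its differences of 1.72 in SOM+ and -0.997 in bulk nuclei included the largest bulk difference of the 12. Shroom2 encodes an actin-binding protein (chrX:149077693-149080091). Shroom2 in SOM+ nuclei measured 47.4 and 57.9 CPM in CeA control, 48.3 and 54.7 in CeA fear, 13.2 and 13.7 in cortex control and 16.7 and 11.3 in cortex fear libraries. Bulk values of Shroom2 were 31.1, 27.4 and 32.0 CPM in CeA KO, 30.0 and 35.6 in CeA WT, 37.5, 43.3 and 50.6 in cortex KO and 49.6 and 41.6 in cortex WT libraries, again with no overlap between the regions in either kind. Slitrk2 encodes a synaptic adhesion protein that spans the membrane (chrX:63905334-63907333). Slitrk2 in SOM+ nuclei measured 52.0 and 42.9 CPM in CeA control, 45.5 and 56.2 in CeA fear, 15.8 and 13.2 in cortex control and 20.2 and 14.9 in cortex fear libraries. Bulk values of Slitrk2 were 71.1, 55.1 and 59.2 CPM in CeA KO, 45.9 and 50.5 in CeA WT, 76.8, 82.7 and 81.6 in cortex KO and 68.0 and 93.5 in cortex WT libraries, where CeA KO 1 reached into the cortex range. Abi3bp encodes a protein of the extracellular matrix (chr16:56476959-56478958). Abi3bp in SOM+ nuclei measured 23.2 and 24.4 CPM in CeA control, 19.4 and 24.2 in CeA fear, 13.3 and 5.61 in cortex control and 10.6 and 10.1 in cortex fear libraries. Bulk values of Abi3bp were 34.2, 26.9 and 43.5 CPM in CeA KO, 36.0 and 52.3 in CeA WT, 51.8, 61.3 and 85.6 in cortex KO and 75.8 and 89.0 in cortex WT libraries, where CeA WT 2 lay just above the lowest cortex library. The differences were 1.85 in SOM+ and -0.57 in bulk nuclei for Shroom2, 1.56 in SOM+ and -0.59 in bulk nuclei for Slitrk2 and 1.16 in SOM+ and -0.98 in bulk nuclei for Abi3bp.

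Signalling, membrane and chromatin genes make up the rest. Rgs20 encodes a regulator that speeds GTP hydrolysis by G proteins (chr1:5007816-5010620). Rgs20 in SOM+ nuclei measured 154 and 120.5 CPM in CeA control, 145 and 143 in CeA fear, 47.4 and 34.7 in cortex control and 47.5 and 38.5 in cortex fear libraries. Bulk values of Rgs20 were 92.3, 83.1 and 92.3 CPM in CeA KO, 73.5 and 104 in CeA WT, 92.7, 103 and 118 in cortex KO and 122 and 133 in cortex WT libraries, and the regions overlapped. Il17b encodes a cytokine (chr18:61846589-61848588). Il17b in SOM+ nuclei measured 21.4 and 29.4 CPM in CeA control, 29.6 and 41.5 in CeA fear, 9.14 and 12.2 in cortex control and 10.7 and 9.31 in cortex fear libraries. Bulk values of Il17b were 30.1, 37.8 and 34.6 CPM in CeA KO, 38.9 and 35.6 in CeA WT, 66.0, 64.2 and 47.0 in cortex KO and 59.0 and 54.6 in cortex WT libraries, with the regions apart in both kinds of nuclei. Phf14 encodes a PHD finger protein that binds histones (chr6:11874881-11876880). Phf14 in SOM+ nuclei measured 110.1 and 77.8 CPM in CeA control, 108 and 89.8 in CeA fear, 33.7 and 33.8 in cortex control and 38.1 and 35.0 in cortex fear libraries. Bulk values of Phf14 were 74.0, 68.0 and 74.3 CPM in CeA KO, 63.4 and 72.0 in CeA WT, 93.8, 111 and 134 in cortex KO and 108 and 134 in cortex WT libraries, and no library of either region crossed into the other. Xkr4 encodes a protein of the Xk family of membrane lipid scramblases (chr1:3660580-3662579). Xkr4 in SOM+ nuclei measured 232 and 193 CPM in CeA control, 228 and 187 in CeA fear, 81.7 and 41.1 in cortex control and 74.4 and 48.3 in cortex fear libraries. Bulk values of Xkr4 were 172, 156 and 169.6 CPM in CeA KO, 154 and 179 in CeA WT, 169.8, 234 and 247 in cortex KO and 219.9 and 252 in cortex WT libraries, with cortex KO 1 inside the CeA range. Vsig2 encodes an immunoglobulin-domain membrane protein (chr9:37345840-37347839). Vsig2 in SOM+ nuclei measured 11.3 and 13.0 CPM in CeA control, 16.0 and 21.1 in CeA fear, 6.07 and 4.23 in cortex control and 5.32 and 5.71 in cortex fear libraries. Bulk values of Vsig2 were 15.6, 15.8 and 16.6 CPM in CeA KO, 24.5 and 17.1 in CeA WT, 34.4, 28.2 and 26.5 in cortex KO and 33.8 and 27.4 in cortex WT libraries, and the regions were apart although CeA WT 1 stood above the other CeA libraries. The regional differences were 1.71 in SOM+ and -0.42 in bulk nuclei for Rgs20, 1.43 in SOM+ and -0.77 in bulk nuclei for Il17b, 1.41 in SOM+ and -0.78 in bulk nuclei for Phf14, 1.80 in SOM+ and -0.49 in bulk nuclei for Xkr4 and 1.33 in SOM+ and -0.80 in bulk nuclei for Vsig2.

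**Figure D3:**
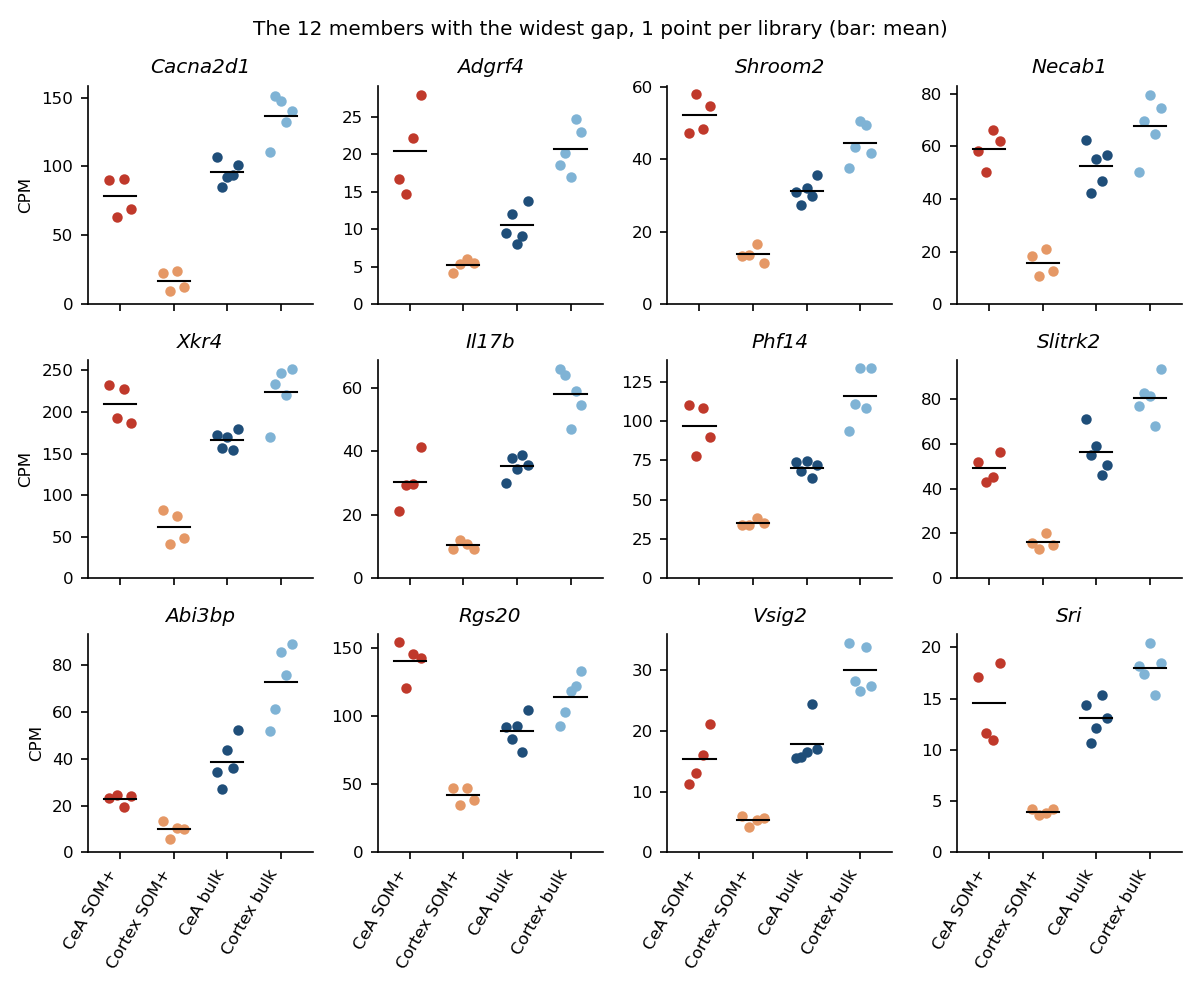
The 12 members with the widest gap, 1 panel each with its own linear axis from 0, in CPM. Each point is a library, in the order of the library numbers, and the bar is the mean of the set. In every panel the cortex SOM+ libraries are the lowest set, at 16.9 ± 7.24 CPM for Cacna2d1 (SD, n = 4), and the cortex bulk libraries lie above the CeA bulk libraries on average.

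The members with the highest mean level behaved alike at a smaller gap. Ripk2, a kinase of innate immune signalling, averaged 202 ± 7.21 CPM in CeA and 99.9 ± 12.6 in cortex SOM+ (SD, n = 4 each), and 301 ± 41.7 in CeA and 434 ± 99.1 in cortex bulk (SD, n = 5 each). Hjurp, the chaperone that loads the centromeric histone variant, averaged 223 ± 9.81 CPM in CeA and 125 ± 21.8 in cortex SOM+ (SD, n = 4 each), and 272 ± 21.0 in CeA and 383 ± 35.4 in cortex bulk (SD, n = 5 each). Glcci1, Ncoa2 and Rundc3b also stood among the 6 with the highest level, with SOM+ differences of 0.78 to 0.87 and bulk differences of -0.44 to -0.40. Ncoa2 is a coactivator of nuclear receptors.

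Receptor and channel genes were present in modest numbers, against 4.52% of all windows. Of the transmitter and neuropeptide receptor windows, 14 of 156 were members (8.97%), among them Grik2, Tacr3, Oprm1, Cckbr, Npy1r, Npffr2 and Htr1f. Grik2, a kainate-type glutamate receptor subunit, averaged 79.8 ± 13.3 CPM in CeA and 36.7 ± 7.19 in cortex SOM+ (SD, n = 4 each), and 67.7 ± 10.8 in CeA and 100.1 ± 13.2 in cortex bulk (SD, n = 5 each). Tacr3, the neurokinin B receptor, averaged 18.1 ± 2.74 CPM in CeA and 7.83 ± 1.49 in cortex SOM+ (SD, n = 4 each), and 28.0 ± 5.48 in CeA and 40.9 ± 13.5 in cortex bulk (SD, n = 5 each). Oprm1, the mu opioid receptor, averaged 6.52 ± 2.20 CPM in CeA and 3.93 ± 1.41 in cortex SOM+ (SD, n = 4 each), and 12.8 ± 2.00 in CeA and 25.9 ± 4.12 in cortex bulk (SD, n = 5 each), with SOM+ libraries that overlapped between regions and bulk libraries that did not. A second Oprm1 window was not a member, with 0.73 in SOM+ and 0.21 in bulk nuclei at 27.5 CPM on average. Ion channel windows gave 14 of 197 (7.11%), including Kcnv1, Pkd1l3, Trpc5, Kcnt2, Kcnd2 and Clcn3 beside Cacna2d1. Kcnv1, a silent subunit that modifies potassium channels, averaged 47.8 ± 1.28 CPM in CeA and 27.0 ± 6.45 in cortex SOM+ (SD, n = 4 each), and 69.1 ± 3.55 in CeA and 127 ± 5.62 in cortex bulk (SD, n = 5 each), with the regions apart in both kinds of nuclei. Trpc5, a cation channel gated through receptors, had differences of 1.02 in SOM+ and -0.67 in bulk nuclei.

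Adhesion and guidance windows gave 26 of 359 members (7.24%), with Adgrf4, Slitrk2, Cadm2, Sema3a and Slitrk5 among them. Cadm2, a synaptic cell adhesion molecule, averaged 153 ± 15.5 CPM in CeA and 54.4 ± 10.6 in cortex SOM+ (SD, n = 4 each), and 165 ± 25.3 in CeA and 226 ± 18.9 in cortex bulk (SD, n = 5 each), with no overlap of the regions. Ligands and growth factors gave 13 of 176 (7.39%), with Il17b, Hgf, Inhba, Fgf16, Wnt2 and Bdnf. Hgf, hepatocyte growth factor, was chiefly a bulk difference, with 0.46 in SOM+ and -1.22 in bulk nuclei. The immediate early genes, which neurons switch on with activity, gave 4 of 31 (12.9%): Bdnf, Homer1, Egr2 and Dusp6. The member window of Bdnf, the neurotrophin of activity-dependent plasticity, averaged 7.37 ± 2.50 CPM in CeA and 3.84 ± 1.54 in cortex SOM+ (SD, n = 4 each), and 16.2 ± 3.64 in CeA and 22.7 ± 3.98 in cortex bulk (SD, n = 5 each), and its regions overlapped in both kinds. The other 3 measured windows of Bdnf did not have the pattern, with -0.57 in SOM+ and -1.90 in bulk nuclei at 69.0 CPM on average, -0.03 in SOM+ and -1.19 in bulk nuclei at 63.2 CPM on average and 1.66 in SOM+ and 0.82 in bulk nuclei at 14.8 CPM on average. Homer1, a postsynaptic scaffold gene with an activity-induced short form, had differences of 0.73 in SOM+ and -0.56 in bulk nuclei at its member window, and its other window had 0.17 in SOM+ and -0.01 in bulk nuclei at 231 CPM on average. Egr2, a zinc finger factor of the early response, had 0.48 in SOM+ and -0.54 in bulk nuclei, and Dusp6, a phosphatase that acts on ERK, 0.48 in SOM+ and -0.43 in bulk nuclei.

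Markers of neuron classes were nearly absent from the members. None of the 8 GABAergic, 15 somatostatin-cell, 10 other interneuron, 29 neuropeptide, 3 microglial and 9 vascular windows over the filter was a member. Among glutamatergic markers 1 of 21 was, Camk2a, a kinase of excitatory neurons, at 16.9 ± 2.08 CPM in CeA and 10.5 ± 0.573 in cortex SOM+ (SD, n = 4 each), and 18.0 ± 3.37 in CeA and 23.3 ± 3.53 in cortex bulk (SD, n = 5 each). Astrocyte markers gave 2 of 13, the glutamate transporters Slc1a2 and Slc1a3, and oligodendrocyte markers 1 of 13, Ugt8a, an enzyme of myelin lipid synthesis. Slc1a2 averaged 44.8 ± 5.18 CPM in CeA and 26.8 ± 6.59 in cortex SOM+ (SD, n = 4 each), and 56.0 ± 6.23 in CeA and 80.7 ± 9.20 in cortex bulk (SD, n = 5 each). Ugt8a averaged 15.8 ± 3.21 CPM in CeA and 11.7 ± 4.50 in cortex SOM+ (SD, n = 4 each), and 59.8 ± 4.22 in CeA and 99.3 ± 22.0 in cortex bulk (SD, n = 5 each). The summed level of the 17 astrocyte marker windows was 189 to 221 CPM in cortex SOM+ and 214 to 265 in CeA SOM+, and from 334 to 422 in CeA bulk and 408 to 440.0 in cortex bulk. Those ranges overlap within each kind of nuclei, no astrocyte window was at 0 in all libraries of a set, and the part of glial nuclei in the members was not tested.

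Members lay in gene-poor stretches of the genome, with a median of 8 other promoter windows within 500 kb (those within 10 kb left out), against 16 for all windows over the filter and 31 for the windows of the opposite pattern. Ranked by the number of neighbours in 5 equal classes, the share of members was 10.5% in the class with the fewest, then 5.54%, 3.01% and 1.55%, and 2.01% in that with the most. Over the 16429 windows, the number of neighbours had a Spearman correlation of -0.36 with the SOM+ difference and of 0.44 with the bulk difference. These correlations run across windows of the same libraries, which are not independent replicates.

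Their neighbours shared the pattern in weaker form. At the 553 members with at least 3 measured neighbours, the median neighbour difference was 0.59 in SOM+ and -0.32 in bulk nuclei, against -0.09 and 0.04 over all windows. The neighbours were higher in CeA SOM+ and lower in CeA bulk at 491 of these members (88.8%), where all windows gave 31.9%. With other members left out of the neighbourhood, the values were 0.53 and -0.26, and 416 of 490 (84.9%) had both signs, against 29.6% for all windows. Across 15065 windows a window's difference and that of its neighbours correlated at Pearson r 0.70 in SOM+ and 0.60 in bulk nuclei, as a description over windows that share libraries.

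Members came in groups. Another member lay within 500 kb of 406 of them (54.7%), against 16.2% of all windows, and 263 stood in 57 runs of 3 or more with gaps of up to 500 kb. The largest run held 24 members of 29 windows at chr13:21270800-22136098 (mm9), with Trim27, Zscan12, Zkscan3, Pgbd1, Zfp184 and a cluster of histone genes. The next held 17 of 35 windows at chr13:23460078-23856536, again mostly histone genes, with Btn1a1 and Abt1. In all, 28 of 60 histone gene windows over the filter were members (46.7%). These genes encode the core and linker histones that package new DNA, are near-identical copies between which reads can be split, and have overlapping windows that share reads. Hist1h4j averaged 44.7 ± 4.73 CPM in CeA and 16.4 ± 4.05 in cortex SOM+ (SD, n = 4 each), and 49.5 ± 7.12 in CeA and 63.2 ± 5.18 in cortex bulk (SD, n = 5 each). Hist1h4k averaged 22.4 ± 3.94 CPM in CeA and 10.6 ± 1.89 in cortex SOM+ (SD, n = 4 each), and 32.3 ± 2.11 in CeA and 48.5 ± 6.76 in cortex bulk (SD, n = 5 each). A run of 9 members of 16 windows at chr17:21144905-22363581 held the zinc finger genes Zfp160, Zfp677, Zfp54, Zfp51 and Zfp52, of the family of DNA-binding repressors. Zinc finger windows as a whole gave 30 of 445 (6.74%).

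The X chromosome held 94 members of 496 windows (19.0%), the highest share of any chromosome with more than 3 windows, followed by chromosome 13 with 70 of 631 (11.1%). Chromosomes 11 and 7 held the lowest shares, 1.08% and 1.22%. The whole X chromosome was shifted, with a median difference of 0.64 in SOM+ and -0.28 in bulk nuclei over its windows. The SOM+ shift was 0.58 between the libraries numbered 1, which are labelled male, and 0.71 between those numbered 2, labelled female. Autosomal windows had medians of -0.02 and -0.03. The X-linked members include Shroom2, Slitrk2 and Trpc5, and Armcx1, Armcx2 and Armcx3, genes of the armadillo repeat family.

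**Figure D4:**
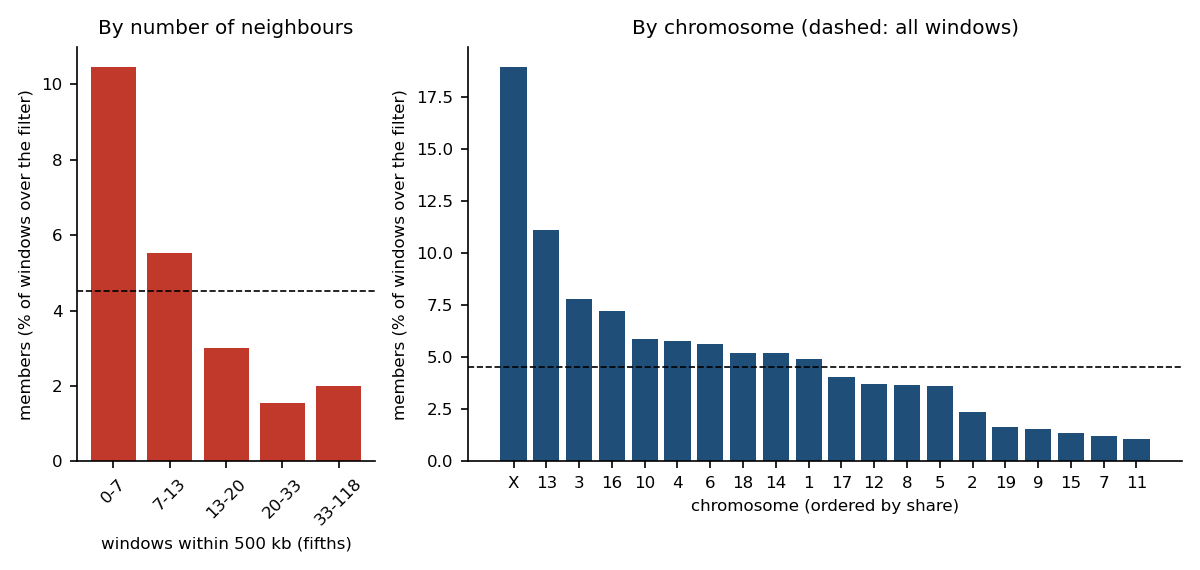
Share of windows over the filter that are members, in percent, by 5 equal classes of the number of promoter windows within 500 kb (left) and by chromosome in order of the share (right, chromosome Y with 3 windows left out). The dashed line is the share over all windows, 4.52%. The class with the fewest neighbours holds 10.5% and the 2 with the most 1.55% and 2.01%, and chromosome X stands highest at 19.0%.

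After the median difference of the neighbours was subtracted, 39 of 553 members were still past both thresholds, with a median remainder of 0.10 in SOM+ and -0.22 in bulk nuclei. This subtraction was added after the data had been seen. Among those that remained were Il17b, Adgrf4 and Vsig2 of the 12 above, and Inpp4a, Otub2 and Exph5, which are named for their remainder after it was seen. Inpp4a, a phosphatase of phosphoinositide lipids, differed by 1.18 in SOM+ and -0.56 in bulk nuclei, while its 11 neighbours stood at -0.34 and 0.14. Its window averaged 34.2 ± 6.40 CPM in CeA and 14.4 ± 2.84 in cortex SOM+ (SD, n = 4 each), and 17.0 ± 3.36 in CeA and 24.3 ± 4.50 in cortex bulk (SD, n = 5 each). Il17b also stood apart from its surroundings, which were at -0.01 and -0.05. The neighbours of Rgs20, by contrast, were at 1.48 and -0.37, close to its own 1.71 and -0.42. For 58 genes another window, at a separate start site, was also measured. At Inpp4a the other window had -0.12 in SOM+ and 0.34 in bulk nuclei at 55.2 CPM on average, at Camk2a 0.81 in SOM+ and 0.06 in bulk nuclei at 101 CPM on average, at Slitrk2 1.73 in SOM+ and -0.13 in bulk nuclei at 31.9 CPM on average, at Sri 0.94 in SOM+ and -0.37 in bulk nuclei at 91.2 CPM on average and at Rgs20 1.72 in SOM+ and -0.34 in bulk nuclei at 39.8 CPM on average. Of 74 such windows 51 had both signs, where 30.7% of all windows had them. The 51 include 12 that are members and have both signs by the rule, so the excess is partly built in.

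Gene-poor promoters outside the members are described per library in the same way. A permutation test was also run, but no p is read from it. The direction restates the correlations with neighbour number above, from the same libraries. With the members left out, the median CPM of the 3138 windows with the fewest neighbours (at most 8) was divided by that of the 3138 windows with the most (at least 33). The ratio was 1.34, 1.01, 1.31 and 1.19 in the CeA SOM+ libraries and 0.840, 0.696, 0.913 and 0.757 in the cortex SOM+ libraries, or 1.21 ± 0.149 against 0.801 ± 0.0953 (SD, n = 4 each). In bulk nuclei it was 2.10, 1.55, 1.68, 1.49 and 1.69 in CeA and 1.62, 2.18, 2.93, 2.15 and 2.76 in cortex, or 1.70 ± 0.238 against 2.33 ± 0.526 (SD, n = 5 each). The SOM+ regions did not overlap, and in bulk nuclei cortex KO 1 lay within the CeA range.

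Promoter enrichment moved with the regions. It was the ratio of the median level at windows of cytosolic ribosomal proteins, open in all cells, to that at olfactory receptor windows, closed in brain. In SOM+ nuclei it was 25.3, 34.4, 35.6 and 17.4 in CeA and 57.3, 75.2, 55.8 and 60.0 in cortex libraries, 28.2 ± 8.53 against 62.1 ± 8.92 (SD, n = 4 each, exact two-sided permutation p = 0.0286). In bulk nuclei it was 18.3, 17.3, 18.9, 10.6 and 14.7 in CeA and 9.67, 14.3, 10.6, 9.23 and 11.6 in cortex, 15.9 ± 3.40 against 11.1 ± 2.03 (SD, n = 5 each, exact two-sided permutation p = 0.0397). The SOM+ p is the smallest that 4 against 4 libraries can give. Adjusted by Benjamini-Hochberg, both permutation p-values stood at 0.0476. The adjustment ran over the 4 tests computed on library values, those of enrichment and of the gene-poor to gene-rich ratio. With any single bulk library other than CeA WT 1, cortex KO 2 or cortex WT 2 left out, the exact permutation p in bulk nuclei was 0.0635 to 0.0794. So the set with the highest enrichment, cortex SOM+, was that in which the members were lowest, and the set with the lowest, cortex bulk, that in which they were highest. The part of enrichment, and of depth, which was greatest in cortex SOM+, in the choice of members was not tested. Taken as a ratio of means, the enrichment difference in bulk nuclei was 2.23 with an exact permutation p of 0.302.

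**Figure D5:**
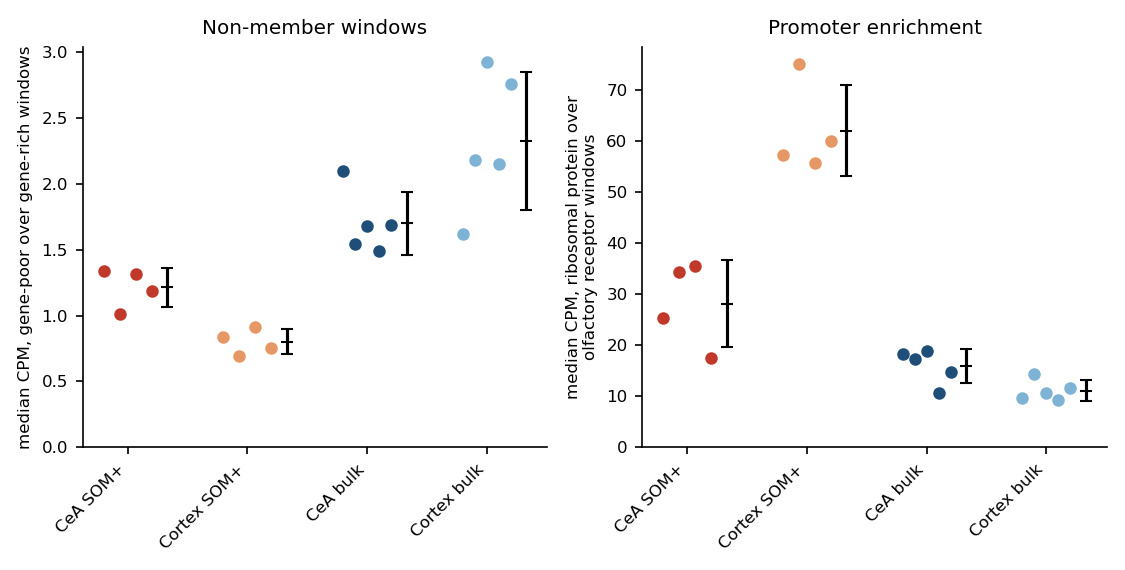
Library values that moved with the regions. Left, median CPM of gene-poor over gene-rich windows that are not members; right, median CPM of ribosomal protein over olfactory receptor windows. Each point is a library and the black mark is the mean ± SD of the set (n = 4 for SOM+, n = 5 for bulk). Cortex SOM+ is lowest on the left, at 0.801 ± 0.0953, and highest on the right, at 62.1 ± 8.92.

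The level in SOM+ control nuclei was compared with that in bulk WT nuclei, averaged over the 2 regions. The rule did not take this contrast, but it chose the members from the same libraries. The contrast also averages differences within the regions, which the rule touches, so its calls are given as a description of the members. It was tested by edgeR's quasi-likelihood test over all windows with Benjamini-Hochberg adjustment, and a window is called at an adjusted p under 0.05. Of the 742 members, 606 were called (81.7%), where 61.1% of the 25246 windows tested and 70.3% of those over the CPM filter were. They were called lower in SOM+ nuclei at 590 members (79.5%), against 30.6% of windows tested and 25.6% of windows over the filter, and higher at 16 members (2.16%), against 30.6% and 44.8%. The median log2 change was -0.87 over the members and -0.07 over all windows tested. Without the 4 libraries of doubtful sex, 549 members were called lower, against 21.0% of windows. Within the regions, as values only since the rule touches them, the median difference was -0.37 in CeA and -1.66 in cortex, where all windows over the filter stood at -0.01 and 0.12. Members were lower in SOM+ than in bulk nuclei at 75.3% in CeA and 99.1% in cortex, against 50.9% and 46.5% of all windows over the filter.

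The members with the smallest p among those called lower were of several kinds. Ugt8a, the myelin lipid enzyme, was at 12.4 ± 4.29 CPM in SOM+ control and 84.2 ± 26.3 in bulk WT libraries (SD, n = 4 each; log2 change -2.57 ± 0.19 SE, edgeR adjusted p = 4.87e-13). Hpgd, which breaks down prostaglandins, was at 5.51 ± 3.35 CPM in SOM+ control and 45.6 ± 7.45 in bulk WT libraries (SD, n = 4 each; log2 change -3.06 ± 0.23 SE, edgeR adjusted p = 4.87e-13). Cav1, the coat protein of caveolae, was at 20.3 ± 5.20 CPM in SOM+ control and 100.2 ± 28.7 in bulk WT libraries (SD, n = 4 each; log2 change -2.10 ± 0.19 SE, edgeR adjusted p = 1.06e-11). Pou3f2, a transcription factor of neural progenitors and upper-layer neurons, fell by 1.88 ± 0.16 SE on the log2 scale (edgeR adjusted p = 7.60e-12), and Syde2 fell by 2.35 ± 0.20 (adjusted p = 5.49e-12). The libraries of the 2 kinds did not overlap at any of these 5. Among the 16 called higher, Zfp458, a zinc finger gene, was at 77.5 ± 18.1 CPM in SOM+ control and 21.4 ± 4.88 in bulk WT libraries (SD, n = 4 each; log2 change 2.08 ± 0.17 SE, edgeR adjusted p = 2.39e-12). Uqcrb, a subunit of respiratory complex III, was at 85.5 ± 31.9 CPM in SOM+ control and 47.0 ± 10.4 in bulk WT libraries (SD, n = 4 each; log2 change 1.03 ± 0.14 SE, edgeR adjusted p = 9.94e-08). Ube2l3, a ubiquitin-conjugating enzyme, rose by 0.75 ± 0.14 SE on the log2 scale (edgeR adjusted p = 1.26e-05) although its libraries overlapped. By group, the members called lower were 13 of 13 ligands, 12 of 14 receptors, 12 of 14 ion channels and 20 of 26 adhesion genes. They were also 26 of 28 histone genes and 12 of 30 zinc finger genes, where 4 others were called higher. Among all members 79.5% were called lower. The shares over all windows of these groups were not taken, so nothing about a group is read from these counts. Among the marker genes, Slc1a2, Slc1a3 and Camk2a were also called lower in SOM+ nuclei by the same test.

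Fear conditioning called no member. Among SOM+ nuclei the test gave 0 members and 0 of 25157 windows (0.0%) in CeA, in cortex, in their average and in the interaction of conditioning with region, and DESeq2 and limma also called 0 members in each. At an unadjusted p under 0.05 edgeR gave 11, 11, 21 and 6 members in that order, or 1.48, 1.48, 2.83 and 0.809% of 742, against 2.38, 1.14, 2.11 and 1.47% of all windows tested. The median log2 change of the members was 0.05 in CeA and 0.10 in cortex, against 0.01 and -0.00 over all windows. Single libraries turned these medians: in CeA to -0.04 without control 2 and -0.07 without fear 1, and in cortex to -0.03 without control 2 and -0.07 without fear 1. They stood at 0.10 without control 1 and 0.11 without fear 2 in CeA, and at 0.19 and 0.21 without the same libraries in cortex. The smallest p in CeA was that of Colec12, a scavenger receptor, with 12.5 and 20.01 CPM after conditioning against 6.65 and 8.54 in controls (log2 change 1.01 ± 0.33 SE, edgeR adjusted p = 1.0). Pln, the inhibitor of the cardiac calcium pump, had 16.0 and 17.0 CPM after conditioning against 7.75 and 11.3 in controls, and Adgrf4 22.2 and 27.9 CPM after conditioning against 14.7 and 16.7 in controls. In cortex Hpgd came first, with 4.97 and 7.84 CPM after conditioning against 1.28 and 4.48 in controls, followed by Sulf1, which trims heparan sulfate, with 8.89 and 16.4 CPM after conditioning against 7.74 and 8.47 in controls. None of these differences passed the adjustment. On data simulated from these counts, 74.5% of 200 windows changed 2-fold were recovered for the average over regions, among 25054 windows.

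The Erbb4 knockout likewise called no member with all libraries in the fit, which held labelled sex as a term. WT 1 of each region is the only bulk library labelled female, so this term took up the difference between WT 1 and WT 2. In the average over regions the KO libraries were then set against the WT 2 libraries, although WT 1 had Y-linked counts. Among bulk nuclei 0 members and 0 of 25196 windows (0.0%) were called by edgeR in CeA, in cortex, in their average and in the interaction, and DESeq2 and limma called 0 members in each. At an unadjusted p under 0.05 edgeR gave 13, 24, 26 and 8 members, or 1.75, 3.23, 3.50 and 1.08%, against 2.96, 3.27, 3.46 and 2.34% of all windows tested. The median log2 change of the members was -0.06 in CeA and -0.26 in cortex, against 0.02 and 0.02 over all windows. Without the sex term the medians were 0.11 and -0.10, so that the sign in CeA turned. It also turned, to 0.02, without CeA KO 2, while the CeA median was -0.13 without CeA KO 1, -0.17 without CeA WT 2 and -0.09 and -0.09 without cortex KO 2 or KO 3, and 0.01 without the 4 libraries of doubtful sex. The cortex median was -0.13 without cortex KO 1 and -0.50 without cortex KO 3. The log2 changes below come from the fit with labelled sex, where WT 1 of each region is the only bulk library labelled female, so they differ from what the means give. Rnf39, a RING finger protein, had the smallest p in CeA, with 12.8 ± 1.66 CPM in KO (SD, n = 3) and 21.7 ± 3.74 in WT (SD, n = 2; log2 change -0.80 ± 0.24 SE, edgeR adjusted p = 0.999). Pfkfb3, an activator of glycolysis, had it in cortex, with 53.8 ± 4.12 CPM in KO (SD, n = 3) and 63.8 ± 11.2 in WT (SD, n = 2; log2 change -0.54 ± 0.20 SE, edgeR adjusted p = 0.945), and Lxn, which encodes the carboxypeptidase inhibitor latexin, followed with 62.9 ± 20.9 CPM in KO (SD, n = 3) and 83.5 ± 13.8 in WT (SD, n = 2; log2 change -0.74 ± 0.29 SE, edgeR adjusted p = 0.945). Without the sex term the log2 changes were -0.62 for Rnf39, -0.27 for Pfkfb3 and -0.41 for Lxn.

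The cortex result hung on 1 library. Without cortex KO 3, and with labelled sex still a term, 985 windows were called in cortex (3.91%). Of these, 880 were lower in KO (3.49% of windows tested), and 167 were members (22.5% of 742), all lower in KO. The rule chose the members on levels that included cortex KO 3, so nothing is read from this excess or its direction. The median log2 change of those 167 was -0.75 without the library and -0.42 with it. The average over regions then called 125 windows (0.496%) and 20 members (2.7%), to which the same limit applies. Cortex KO 3 was the bulk library with the highest median level of the members, 78.3 CPM, and the highest ratio of gene-poor to gene-rich windows, 2.93. Of the 2 KO libraries that remained in cortex, KO 2 is among the 4 of doubtful sex. Without those 4 libraries edgeR called 0 members in cortex and in the average, with 1 and 6 at an unadjusted p under 0.05, or 0.135 and 0.809%, against 1.47 and 1.54% of all windows tested. A 2-fold change was recovered at 52.0% of 200 windows simulated for the average over regions, among 25157 windows.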

How the data were processed

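ATAC-seq was done on 8 SOM+ and 10 bulk libraries. The deposited table holds raw counts of reads per promoter window, per its header and values, on mm9; the submitters' processing notes name Bowtie2 (aligner), Trimmomatic 0.32, MACS2 and Picard 1.88, while the counting program, any Tn5 shift and the read filters are not given in the sources read here. Of 26728 entries, 663 repeats were left out. CPM was taken on the summed counts of all windows. The members follow the rule given in the report, with a pseudocount of 1.

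Tests across windows used edgeR 4.0.16 (quasi-likelihood, TMM scaling, filterByExpr, Benjamini-Hochberg adjustment) in R 4.3.3, with all 8 SOM+ libraries for fear conditioning, all 10 bulk libraries with labelled sex as a term for the knockout, and all 18 libraries with labelled sex for SOM+ against bulk. DESeq2 1.42.0, limma 3.58.1 after cyclic loess, other scalings and filters, and leaving out each library were alternatives. The edgeR steps were tested on simulated data. Promoter enrichment was compared by exact permutation, and so was the gene-poor to gene-rich ratio, for which no p is given. Total counts per library set the precision, and intervals or floors cover counting error only.

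The members and gene lists were chosen with earlier results of these data known. Named genes are the 12 members with the widest gap and the 6 with the highest mean CPM, leaving out predicted names, smell and taste receptors and small RNAs, up to 4 members of each gene list (others named here were chosen after their values were seen), up to 5 called per direction and test, or the 3 with the smallest p, and the 3 windows on either side of the thresholds. RefSeq promoters were matched by symbol and carry GRCm38.p6 positions, which were not joined to the mm9 windows. Some members that the rule would name are not reported here.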

Additional observations from a re-analysis of the deposited data

Results flagged for a closer look

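In 60 checks, of the 12 members with the widest gap and 3 library values in each of the 4 sets of libraries, 1 held a library far from the rest by Dixon's test. At Vsig2 in CeA bulk nuclei, WT 1 stood highest at 24.5 CPM, while the other 4 libraries lay between 15.6 and 17.1 CPM. Chance flags about 1 in 20 such sets. CeA WT 1 is among the 4 libraries whose Y-linked counts went against the labelled sex.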

How the results depend on the processing

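The number of members was 1454 with thresholds of 0.3, 313 with 0.5, 1221 with bulk WT libraries alone and 85 in all windows after subtraction of the neighbours; leaving out single libraries gave 492 to 1074, the ends being without cortex KO 3 and without cortex KO 1. TMM scaling and cyclic loess gave 755 and 798 windows. The enrichment difference in bulk nuclei was 2.23 as a ratio of means. Leaving out single libraries moved it between 4.12 and 6.20, that in SOM+ nuclei between -36.4 and -29.5, and the difference in the gene-poor to gene-rich ratio between 0.370 and 0.479 in SOM+ and -0.804 and -0.476 in bulk nuclei; with 3 against 4 libraries the permutation test cannot pass 0.05. Members called under leave-one-out were 563 to 633 for SOM+ against bulk, 0 to 167 for the knockout in cortex, 0 to 20 in the average and 0 in CeA and for its interaction. Conditioning called 0 to 1 member in CeA, cortex, average and interaction, and where 1 was called, without a library numbered 1, it was the Y-linked Eif2s3y. The log2 change of Tusc1 in cortex conditioning ran from -0.013 without cortex fear 1 to 0.85 without cortex control 1. The causes of these changes were not tested. With a replicate block 1 member, Eif2s3y, was called for the knockout in CeA, in cortex and in their average; no label says that equal numbers share a mouse or batch, and deviations of same-numbered libraries correlated at 0.10 to 0.50 in SOM+, where the number is also the labelled sex, and -0.40 to 0.51 in bulk nuclei. Depth limits the lowest members, and differences too small for 2 to 5 libraries a set were not detectable.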
